A study of Mus musculus with 96 samples.

Results

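Chromosome 4 from 143 to 148 Mb (mouse build mm9) is a stretch of 5 Mb that holds long tandem arrays of duplicated genes between runs of single-copy genes. Its members are the HindIII restriction fragments whose listed end lies from 143000001 to 148000000. They number 1482 of the 48320 fragments listed for the chromosome. The 9 fragments within 20 kb of viewpoint 1, which itself lies in the stretch at 147978191, were left out, and 1473 fragments remained. The stretch is compared with the adjoining 5 Mb on its centromere side (1250 fragments), the next 5 Mb beyond (1275 fragments) and the adjoining 2 Mb on its telomere side (477 fragments).

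The samples were mouse embryonic fibroblasts (MEFs) of embryos dissected at 13.5 days from crosses of chimeric males, which carried an engineered 129S5/SvEvBrd chromosome 4, with C57BL/6J females, and all were used confluent at passage 4. Lines E71 and E98 carried a 4.3 Mb deletion in band 4E2 on the 129S5 copy, called Df, beside an intact C57BL/6J copy, called +DBl6, and lines E117 and E118 carried the undeleted copies +129 and +Bl6. PE-4Cseq, a ligation assay that counts contacts of 1 chosen fragment, was run from 12 viewpoints, and a strain polymorphism in the viewpoint read assigned each read pair to a chromosome. This gave 96 libraries, 2 for each viewpoint and chromosome and both from lines of the same genotype. Viewpoints 1 and 2 lie upstream of the deletion, 3 to 10 inside it and 11 and 12 downstream of it. The stretch itself is intact on every chromosome.

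In circular chromosome conformation capture, DNA that lay close in the nucleus is ligated, and the sequence beyond a HindIII site names the captured fragment. A read can be placed only where that sequence occurs once in the genome. Tandem duplications, in which a block of DNA is copied next to itself, are therefore hard to read. The stretch holds 2 families that grew by such copying in rodents, the PRAME genes, leucine-rich repeat proteins expressed mainly in the germ line and the early embryo, and KRAB zinc finger genes, DNA-binding repressors that act largely on transposable elements.

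The 30 bases that begin at a HindIII site, the length of read that was aligned, show what repetition means here. Below are the 3 end sequences with the most exact copies in the stretch, read 5′ to 3′ away from the site from the mm9 (NCBIM37) reference, with the HindIII site in capitals.
Repeated end 1: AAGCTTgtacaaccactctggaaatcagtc
Repeated end 2: AAGCTTacatgactaggcctaggttaatag
Repeated end 3: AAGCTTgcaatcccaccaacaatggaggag
Repeated end 1 occurred 28 times in the stretch and at 11400 HindIII ends of the genome, so nearly all of its copies lie elsewhere. Its first copy is at chr4:143110899-143110928 on the minus strand. Repeated end 3 was of the same kind, with 17 copies in the stretch and 8760 in the genome, the first at chr4:143210899-143210928 on the plus strand. Repeated end 2 occurred 17 times and all 17 copies lay in the stretch, 9 of them in the third Mb, 7 in the fourth and 1 in the fifth, with 0 copies elsewhere in the genome. Its first copy is at chr4:145003104-145003133 on the minus strand. No site beside any of these copies had a unique sequence on its other side. Some of these sites still had reads. They were the sites of 7 copies of repeated end 1 (123 reads), 5 of repeated end 2 (1252 reads) and 4 of repeated end 3 (34 reads). How these reads came to be placed was not tested.

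The 3 fragments of the stretch that were captured in the most libraries show the opposite case. Each listed fragment collects reads from both flanks of its HindIII site, one read on the minus strand before the site and one on the plus strand after it, again with the site in capitals.
Captured site 1, before: AAGCTTcctcctgcatcagacaggaagaga
Captured site 1, after: AAGCTTcttggatggtgacagaataagaca
Captured site 2, before: AAGCTTaggtgtcatgaggcatcaaaggac
Captured site 2, after: AAGCTTctcatggctaccatgcttcaagat
Captured site 3, before: AAGCTTggtattttagactccaacacagag
Captured site 3, after: AAGCTTctcaaaaactgtgcatcaccaacg
Captured site 1, with its flanks at chr4:145147870-145147899 and chr4:145147894-145147923, lies in an intron of Gm13242 (now Zfp980), a zinc finger gene of the third Mb. Its sequence before the site had 19 other HindIII ends within 3 mismatches, and its sequence after the site had 0. Captured site 2, at chr4:146981774-146981803 and chr4:146981798-146981827, is intergenic, 4.24 kb from the zinc finger gene 2610305D13Rik (now Zfp979), and is unique before the site but has 33 near copies after it. Captured site 3, at chr4:147309781-147309810 and chr4:147309805-147309834, lies in an intron of Plod1, which encodes a lysyl hydroxylase that modifies collagen, and both of its flanks are unique. At captured sites 1 and 2 a single unique flank stands in DNA that is otherwise repeated.

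The libraries held from 444 to 3969613 reads on chromosome 4, with a median of 657955. In 16 of them the viewpoint itself is deleted on Df, and these held 845 to 31156 reads, 14 to 258 of them in the stretch. They give the reads recorded where the viewpoint was absent, and values below are for the 80 libraries whose chromosome holds the viewpoint, unless all 96 are named. In 6 pairs of libraries meant as replicates, read counts at the fragments captured by both correlated above 0.9 (log2 reads), where the other pairs with a value lay between -0.156 and 0.621. These pairs (+DBl6 at viewpoints 4, 6, 7 and 8, and +129 and +Bl6 at viewpoint 9) were counted as 1 sample in the comparisons of read shares and in the window tests, and stayed separate libraries elsewhere. Viewpoint 10 in E117 was shallow on both chromosomes, at 444 reads on one and 1255 on the other, and neither library entered a comparison of read shares or a window test.

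The stretch was denser in HindIII fragments than its neighbours, and a smaller share of them was captured than in the stretches that adjoin it on either side. It held 295 fragments per Mb, against 250 on the centromere side, 255 beyond it and 238 on the telomere side. Over the whole chromosome the density was 310. A fragment is called captured in a library if it had at least 1 read there. In the 80 libraries 16.1% ± 7.55 (SD) of the fragments of the stretch were captured, with a lowest value of 0.0679%, a median of 17.9% and a highest value of 29.5%. The same share was 28.5% on the centromere side, 13.7% in the next 5 Mb, 44.8% on the telomere side and 9.2% over the whole chromosome. The stretch was lower than the centromere side in 78 of the 80 libraries, although it lies nearer to the viewpoints. It was higher than the next 5 Mb in 54 of the 80.

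Within the stretch the captured share rose and fell with gene content. It averaged 7.99% in the first Mb, which holds the PRAME genes, and 21.9% in the second, which holds the arylacetamide deacetylase-like (Aadacl) genes and Vps13d. It was 5.38% in the third and 6.73% in the fourth, which hold the zinc finger genes, and 43.1% in the fifth, which runs from the last zinc finger genes through Mfn2 and Mtor to viewpoint 1. The third Mb was below the second in 79 of 80 libraries and equal in the other one.

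Fragments that no library ever captured were the larger difference. Over all 96 libraries 870 fragments of the stretch (59.1%) had a read and 603 had none. The share with a read was 96.9% on the centromere side, 94.9% in the next 5 Mb, 98.3% on the telomere side and 77.4% over the whole chromosome. By Mb of the stretch it was 60.5, 91.0, 26.3, 31.6 and 83.3%. Among the 1473 fragments, 182 were captured in 1 to 5 of the 80 libraries, 310 in 6 to 20, 211 in 21 to 40 and 167 in 41 or more.

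**Figure D1:**
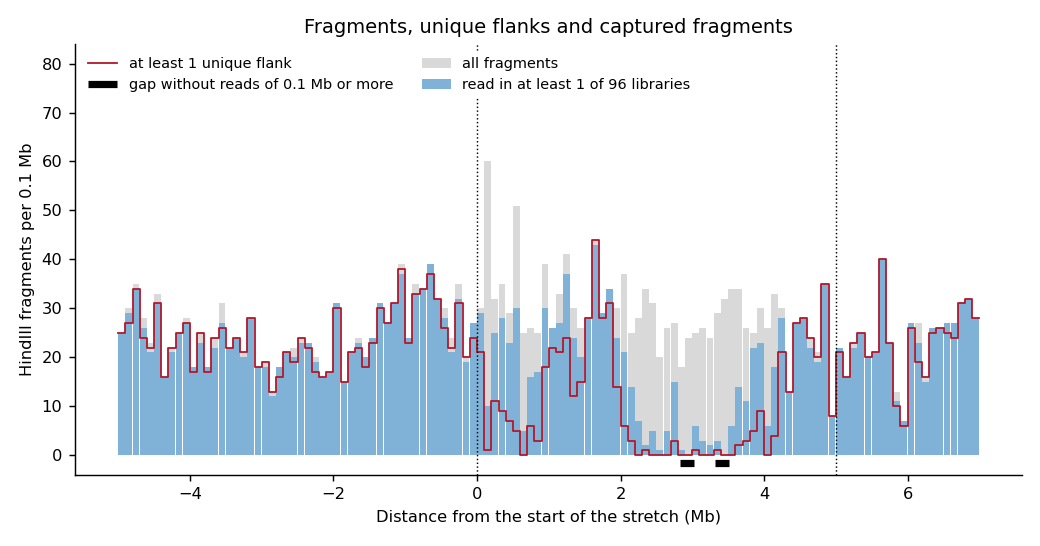
HindIII fragments per 0.1 Mb (y axis) against distance from the start of the stretch in Mb (x axis), for the stretch (between the dotted lines) and its neighbours: grey bars are all fragments, blue bars those with a read in at least 1 of 96 libraries, and the red line counts fragments with at least 1 unique flank. The red line and the blue bars drop together in the first, the third and the fourth Mb, and the 2 black bars mark the gaps of 194 and 193 kb without any read.

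The uniqueness of the sequence followed the same outline. A fragment is called unique here if at least 1 flank of its site had no other HindIII end of the genome within 3 mismatches over the 30 bases, the tolerance used in the alignment. By this measure 534 fragments of the stretch (36.3%) were unique, against 95.7% on the centromere side, 93.2% beyond it, 95.8% on the telomere side and 79.1% over the whole chromosome. By Mb the unique share was 23.0% (81 fragments), 74.5% (239), 4.81% (13), 7.37% (21) and 73.5% (180). Of the 534 unique fragments 98.7% had a read in at least 1 library, and of the 939 others 36.5% had one.

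The mean captured share of the unique fragments was 37.2% ± 16.7 (SD over the 80 libraries), from 0.187 to 62.2%, and that of the others was 4.14%. Among unique fragments the order of the parts of the stretch changed. The third and the fourth Mb, lowest of all over all fragments, reached 47.1 and 46.4%, above the second Mb at 27.3% and the first at 20.9%, and the fifth stood highest at 56.1%. The third Mb was below the second in 6 of 80 libraries and above it in 73. These values rest on 13 unique fragments in the third Mb and 21 in the fourth. Uniqueness was read from the C57BL/6J reference alone.

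How much sequence was unique at a site went with how often it was captured. With an exact match of the 30 bases after the HindIII site as the measure, 632 fragments had 2 unique flanks, and 98.1% of them had a read, with a mean captured share of 33.7%. Fragments with 1 unique flank had a read in 86.3% (before the site, 102 fragments) and 84.2% (after it, 114 fragments) of cases, with mean captured shares of 9.89 and 9.21%. The 625 fragments with no unique flank had a read in 10.6% of cases and a mean captured share of 0.636%.

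Most repeated flanks had at least 1 near copy inside the stretch. Of its 1970 flanks that were not unique, 89.6% had a near copy elsewhere in the stretch, 30.7% had all of their copies there, and 10.4% had copies only outside it. A repeated flank had a median of 8 other copies in the genome and of 4 in the stretch. The second Mb stood apart, since 51.3% of its repeated flanks had a copy inside the stretch and the median number of copies was 219, against 97.9% and 8 in the third Mb. Of the 2964 fragment ends of the stretch 46.0% had an exact copy in it. GC content was 42.8% in the stretch and 49.6, 48.9 and 48.1% in the 3 neighbouring stretches, and its part in the captured shares was not tested.

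**Figure D2:**
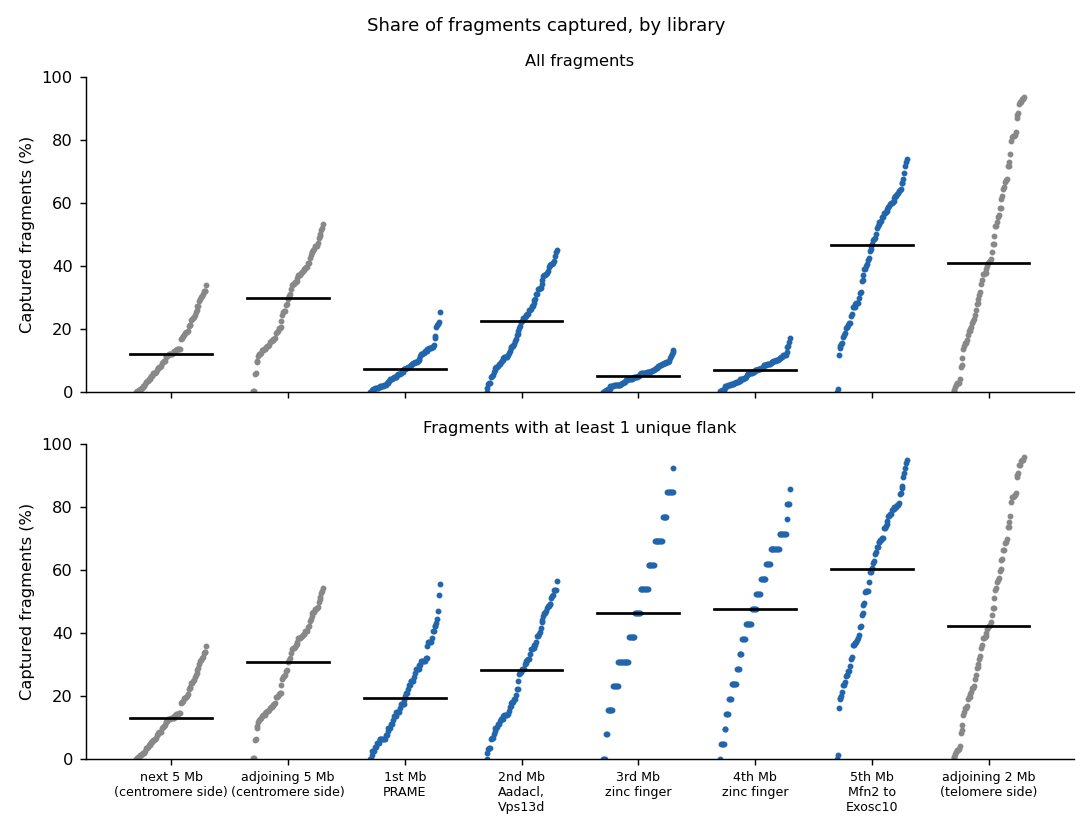
Captured fragments as a share of all fragments (upper panel, %) and of fragments with at least 1 unique flank (lower panel, %), for 8 stretches along the x axis. Each point is 1 of 80 libraries, sorted by value within a stretch, black lines are medians, blue marks the 5 Mb of the stretch and grey its neighbours. The third and the fourth Mb are lowest in the upper panel and lie above the first and second in the lower one.

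The gene groups gave the same picture at the level of single genes. Gene symbols are those of the mm9 annotation, which places 192 gene records in the stretch, 86 of them protein coding and 81 pseudogenes. The zinc finger group held 18 records from 145104787 to 147222475, with 183 fragments in the gene bodies, of which 6.01% were unique and 35.5% had a read. Its mean captured share was 7.16% over all fragments and 51.2% over its 11 unique ones.

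No read fell in 6 zinc finger genes that hold fragments, namely Gm13051 (now Zfp987), Zfp600, Gm13138, Gm13151 (Zfp988), Gm13145 (Zfp978) and Zfp534, and none of their fragments was unique. Gm13242, the longest of the group at 190 kb, had reads at 21 of its 52 fragments, 3 of them unique. Most of its 30927 reads came from captured site 1, which alone held 28696 in the 80 libraries. Zfp933, at the telomere-side edge of the cluster, had reads at 5 of 7 fragments and a mean captured share of 29.3%.

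The PRAME family held 22 records from 143002329 to 143998367, with 67 fragments, 38.8% of them unique. Of these fragments 83.6% had a read, and their mean captured share was 15.4%, or 27.8% over the unique ones. The mean captured share differed between its genes. It was 36.5% in Pramef8 (now Pramel12), with 6 unique fragments of 6, 35% in Gm13089 (Pramel23), with 1 of 2, and 28.3% in Pramef12 (Pramel13), with 7 of 8. Pramel4 and Gm13128 (Pramel30), with 4 and 3 fragments and no unique one, had no read in any library. The oocyte-expressed Oog genes were captured at 24.2% (Oog4), 12.5% (Oog3) and 10.6% (Oog2).

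The 6 records whose current symbol begins with Aadacl in that spelling encode enzymes related to arylacetamide deacetylase, and they had a higher unique share than both clusters although they too are a tandem family. Of their 30 fragments 83.3% were unique and all had a read, with a mean captured share of 22.1%. It ranged from 15.4% in Gm436 (Aadacl4fm4) to 33.8% in Aadacl3. Gm13178, whose current symbol is spelled AAdacl4fm3, was not counted among them because of its letter case, and it had 3 fragments, all unique, with a mean captured share of 26.7%.

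Of the 26 records on the single-copy list, 19 held a fragment outside the viewpoint zone, and 217 of their 218 fragments (99.5%) had a read. The exception was 1 of the 89 fragments of Vps13d, a lipid transfer protein gene of 222 kb. Vps13d was captured at 30.4% and its neighbours Dhrs3, a retinal reductase gene, and Tnfrsf8, which encodes the receptor CD30, at 31.4 and 25.6%. The genes of the fifth Mb were captured more often. Mfn2, a mitochondrial fusion gene, reached 58.9%, Ptchd2 (now Disp3) 62.9% and Mtor, the growth-regulating kinase, 58.1% with reads at all 32 of its fragments. Mean distance to the viewpoints differed between these genes as well as sequence, and the parts of the 2 in their shares were not tested.

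**Figure D3:**
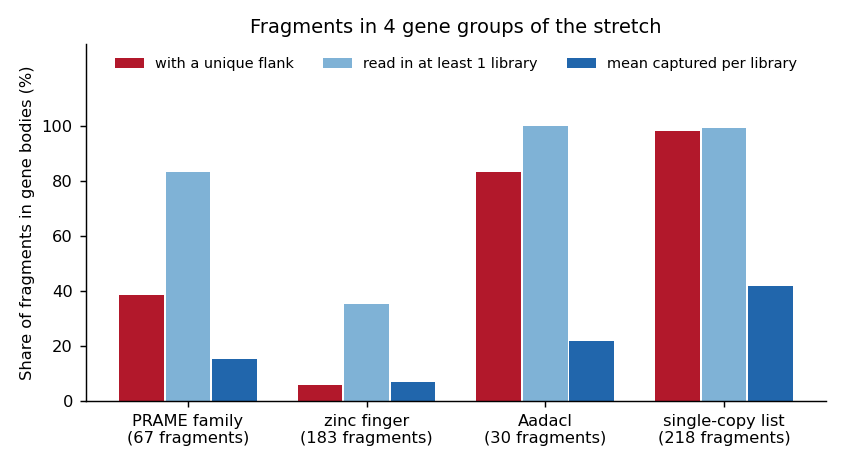
Share (%) of the fragments in the gene bodies of 4 gene groups of the stretch that had a unique flank (red), a read in at least 1 of 96 libraries (light blue), and were captured in a library on average over 80 libraries (dark blue), with the number of fragments under each group. Among the 4 groups shown, the zinc finger group is lowest in all 3, at 6.01, 35.5 and 7.16%. The 120 records in none of these groups are not shown.

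A gap is a run of neighbouring fragments without a read in any of the 96 libraries. Chromosome 4 had 10 gaps of 0.1 Mb or more, together 2.82 Mb or 1.81% of its length, and 2 of them lay in the stretch, where they made up 388 kb or 7.75%. The first ran from 145827610 to 146021719 (194 kb, 42 fragments) over Rex2 and Gm4169, and 50000 of its bases are undetermined in the reference. The second ran from 146323534 to 146516992 (193 kb, 61 fragments) over 10 gene records, among them the zinc finger genes Gm13138 and part of Gm13139, and holds no undetermined base. None of the 103 fragments in the 2 gaps was unique. They ranked seventh and eighth in length on the chromosome, where the longest, outside the stretch, was 762 kb.

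With a limit of 50 kb the count was 11 gaps in the stretch of 35 on the chromosome, and they covered 20.4% of the stretch. The next 3 in length were 146212911 to 146312146 (99.2 kb), 145330316 to 145415817 (85.5 kb) and 145459550 to 145542440 (82.9 kb), all in the third and the fourth Mb. One of the 11, from 143102890 to 143161691, lay in the PRAME cluster and 1, from 147026550 to 147083790, at Zfp534. No fragment in any of the 11 was unique. With a limit of 0.2 Mb the stretch had 0 gaps.

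The comparison of the stretch with the centromere side was made by MEF line, from the 4 viewpoints outside the deletion, since libraries of a line come from the same line of cells. Captured fragments were 9.64% in the stretch against 14.0% on the centromere side in E71, 15.0 against 28.0% in E98, 12.6 against 23.3% in E117 and 16.9 against 34.4% in E118. The stretch was lower in all 4 lines, at a mean of 0.56-fold (log2 -0.837 ± 0.209 SD, n = 4 lines, exact two-sided sign-flip permutation p = 0.125, the smallest that 4 lines allow). With unique fragments only, the direction turned, to 23.9 against 14.3%, 36.2 against 28.8%, 30.4 against 24% and 40.6 against 35.3% in the same order of lines, or 1.32-fold (log2 0.403 ± 0.23 SD, n = 4 lines, exact permutation p = 0.125). With uniqueness taken as an exact match after the site, which counts more fragments as unique, the shares lay close together at 0.955-fold (exact permutation p = 0.5, n = 4 lines). Against the centromere side the stretch was thus lower over all fragments, and among unique ones the size and direction moved with how uniqueness was defined. Against the telomere side the stretch was lower in all 4 lines both over all fragments (0.211-fold) and over unique ones (0.499-fold), and the telomere side lies nearer to viewpoint 2 and to those beyond it.

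The 2 strains gave nearly the same captured share. Over all 4 viewpoints outside the deletion, the 129S5 chromosome had 9.78% of the stretch captured in E71 and the C57Bl6 chromosome 9.5%, with 14.7 and 15.4% in E98, 12.5 and 12.7% in E117 and 16.9 and 17.0% in E118. Taken relative to the centromere side, the 129S5 share was 1.05-fold that of C57Bl6 and higher in 4 of 4 lines (log2 0.064 ± 0.027 SD, exact permutation p = 0.125). Taken relative to the telomere side it was 0.994-fold, and from all 12 viewpoints of the control lines, with the 2 lines kept separate at viewpoint 9, 0.997-fold.

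Some fragments were read on only 1 strain's chromosome. In the stretch 0 of 464 fragments were read in at least 6 libraries of 129S5 and in none of C57Bl6, where the chromosome gave 0.182% (15 of 8247). In the other direction there were 3 of 497, where the chromosome gave 0.304%. These 3 ended at 143336230 in an exon of the PRAME-region gene Gm13081 (8 C57Bl6 libraries), at 147191393 between genes and 4.49 kb from Rps19-ps3 (8 libraries), and at 147836618 in an intron of Mtor (7 libraries). The fragment in Mtor was the unique one of the 3. No test was made, and reads of both strains were aligned to a C57BL/6J reference.

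At captured sites 1 and 2 the median level was higher on the 129S5 chromosome. In the 31 pairs of libraries of 1 line and viewpoint with enough depth, captured site 1 had a median of 863 RPM (reads per 1000000 reads on chromosome 4 more than 20 kb from the viewpoint) on the 129S5 chromosome, with a range from 0 to 4059.6. On the C57Bl6 chromosome the median was 76.9 RPM and the range 0 to 5476.4. The 129S5 chromosome was higher in 27 of 31 pairs and lower in 3. By line the mean log2 difference, after adding 1 RPM, was -1.16 in E71, 3.94 in E98, 2.84 in E117 and 3.36 in E118, so 3 of 4 lines shared the direction (exact sign-flip permutation p = 0.25, n = 4 lines). At all 3 sites viewpoint 9 of E117 and of E118 entered as separate pairs, although their read counts correlated above 0.9.

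At captured site 2 the medians were 612 and 35.2 RPM, with ranges from 0 to 6340.1 and from 0 to 3745.8. The 129S5 chromosome was higher in 21 pairs and lower in 8, and in all 4 lines on average (log2 4.96, 1.27, 2.95 and 1.7, exact permutation p = 0.125, n = 4 lines, the smallest possible). Captured site 3, in Plod1, had medians of 114 and 181 RPM and mean differences of both signs (-0.54, -0.79, 1.11 and 0.79, exact permutation p = 0.875, n = 4 lines). The ranges of both chromosomes overlapped widely at all 3 sites. The 3 sites were chosen for the number of libraries that captured them, over both strains.

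How many of the reads fell in the stretch depended first on the viewpoint. The read share is the percentage of a library's chromosome 4 reads, outside 20 kb of its viewpoint, that lie in the stretch. The median was 28.4% at viewpoint 1, which lies in the stretch. At viewpoint 2, 0.922 Mb past its end, it was 0.774%, the lowest of the 12. From viewpoint 2, however, 72.4 to 84.6% of reads fell in the 2 Mb on the telomere side, where it lies. From viewpoint 1 that range was 18.7 to 23.5%. Reads near a viewpoint, beyond the 20 kb left out, count in the total of which the read share is a part. Their part in the low share of viewpoint 2 was not tested. From viewpoints 3 to 10, 2.43 to 5.94 Mb past the end, the medians lay between 2.22% (viewpoint 10, with its 2 shallow libraries among the 6) and 4.25% (viewpoint 3). Viewpoint 11 gave 1.44% and viewpoint 12, the farthest at 7.56 Mb on the reference, gave 4.77%, so the order did not follow reference distance. On Df, whose libraries are included in both medians, the 4.3 Mb deletion brings viewpoints 11 and 12 nearer to the stretch. From viewpoint 2 the share of captured fragments was also low, at a median of 6.28% against 18.0% from viewpoint 1.

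At viewpoint 1 both chromosomes of the deletion lines had more reads in the stretch than those of the control lines. The share was 34.2 and 33.2% on Df in E71 and E98, against 19.3 and 24.8% on +129 in E117 and E118. It was 34.1 and 31.9% on +DBl6 against 21.3 and 23.7% on +Bl6. The groups did not overlap, with folds of 1.53 and 1.47, but 2 lines against 2 cannot go below an exact permutation p of 0.333, which both reached. Viewpoint 1 was not alone in this. Groups did not overlap at 2 of 4 viewpoints for Df against +129. For +DBl6 against +Bl6 they did not at 4 of the 6 viewpoints with 2 samples a side. Per the study's methods the PCR products of E71 and E117 were purified on columns and those of E98 and E118 with beads, so both kinds occur in each genotype. The part of the purification in these shares was not tested. Genotype and the lines that carry it cannot be told apart in this contrast.

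**Figure D4:**
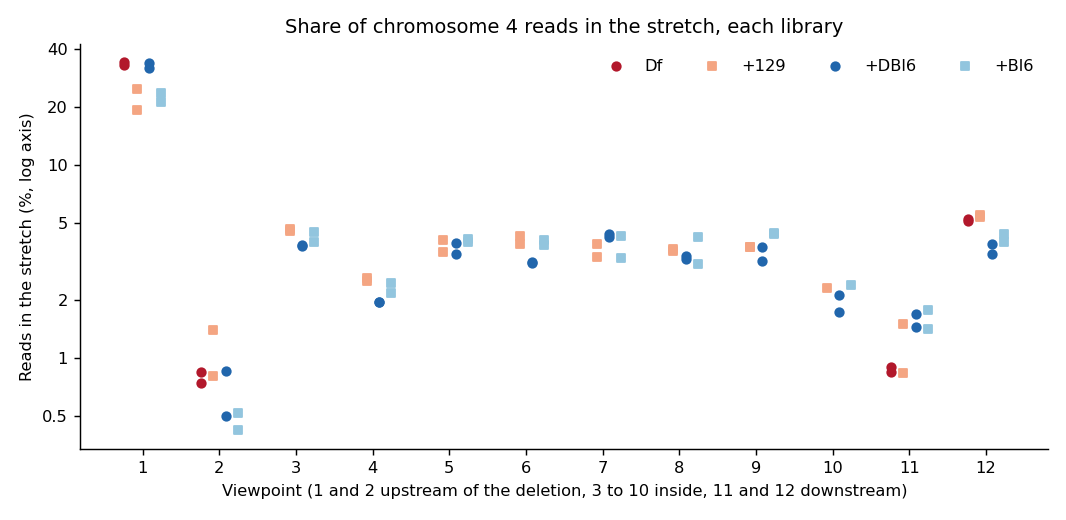
Reads in the stretch as a percentage of chromosome 4 reads outside 20 kb of the viewpoint (y axis, log scale) for each of the 12 viewpoints (x axis), where every point is 1 library with at least 10000 reads. Red and orange are Df and +129, dark and light blue are +DBl6 and +Bl6. At viewpoint 1 the Df and +DBl6 points lie at 31.9 to 34.2%, above those of both control chromosomes.

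The excess at viewpoint 1 was near the viewpoint. Fragments 20 to 100 kb from it took 14.4 and 15.2% of reads on Df, against 9.41 and 10.4% on +129, and 14.5 and 14.9% on +DBl6, against 7.63 and 10.3% on +Bl6. Fragments at 0.1 to 1 Mb took 19.2 and 17.1% on Df, against 9.39 and 13.5% on +129, and 18.3 and 16.2% on +DBl6, against 12.5 and 12.3% on +Bl6. In both bands the chromosomes of the deletion lines lay above those of the controls without overlap.

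Beyond 1 Mb, over 1221 fragments that include all of the PRAME and most of the zinc finger genes, the shares were 0.622 and 0.957% on Df against 0.502 and 0.91% on +129, and 1.35 and 0.828% on +DBl6 against 1.17 and 1.01% on +Bl6. There the groups overlapped. With the fifth Mb of the stretch left out, which is not the same cut, the folds were 1.11 for Df against +129 and 1.06 for +DBl6 against +Bl6. The share of fragments captured in the nearer bands overlapped between the groups too, at 54.4 and 69.2% on Df and 60.3 and 65.8% on +129 for 0.1 to 1 Mb.

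**Figure D5:**
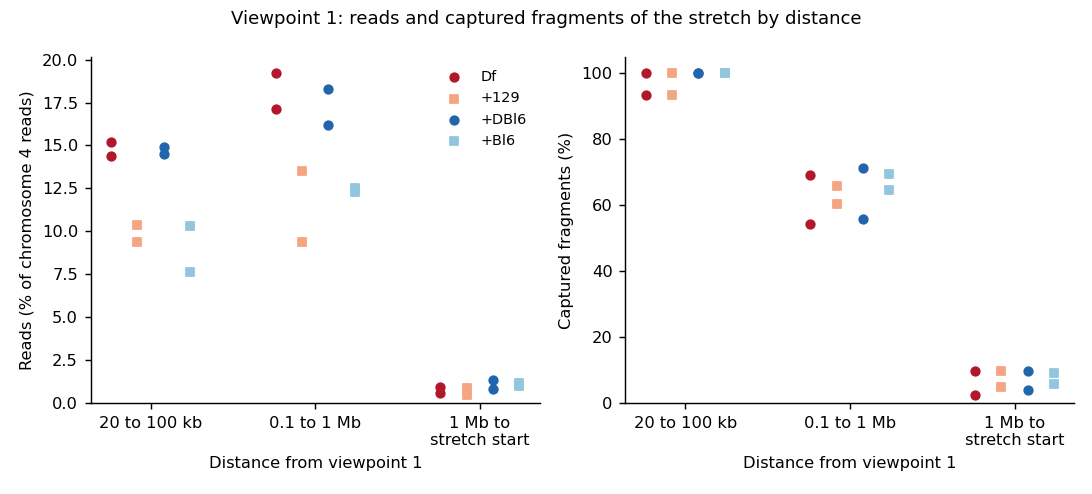
Reads (left, % of chromosome 4 reads) and captured fragments (right, %) of the stretch from viewpoint 1, in 3 bands of distance from it (x axis), with 1 point for each library of Df, +129, +DBl6 and +Bl6. The read shares of Df and +DBl6 lie above the controls in the 2 nearer bands, and the captured shares of all 4 chromosomes overlap.

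The 3 fragments with the most reads lay in the same place. They end at 147938728 in a coding exon of Exosc10, a subunit of the RNA exosome (71885 reads in all), at 147922447 in an intron of Mtor (65430 reads) and at 147934602 in an intron of Exosc10 (50322 reads), 39.5 to 55.7 kb from viewpoint 1. Their highest counts in a library were 20264, 16609 and 12101 reads, all from viewpoint 1 on +DBl6 in E98. They were read in 42, 52 and 51 of the 80 libraries.

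At the other viewpoints outside the deletion the mean share was lower on Df. The 4.3 Mb deletion lies between the stretch and viewpoints 11 and 12, which are therefore closer to it along Df than along +129. The part of this in the shares was not tested. From viewpoint 2 the shares were 0.845 and 0.741% on Df against 1.4 and 0.808% on +129 (0.719-fold, exact permutation p = 0.667, 2 lines against 2). From viewpoint 11 they were 0.848 and 0.897% against 0.838 and 1.5% (0.747-fold), and in both cases the groups overlapped. From viewpoint 12 they were 5.25 and 5.13% against 5.42 and 5.53% (0.947-fold), close in size though without overlap (exact permutation p = 0.333, 2 lines against 2). Df was thus higher at 1 and lower at 3 of 4 viewpoints, and the smallest adjusted exact p over the 4 viewpoints was 0.666. By line, the geometric mean share over the 4 viewpoints was 3.37 and 3.26% on Df against 3.33 and 3.59% on +129. The fold was 0.959 (exact permutation p = 0.667, 2 lines against 2).

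Between the intact C57Bl6 chromosomes of the 2 genotypes the fold ran from 0.786 to 1.47 over the 12 viewpoints, with a median of 0.904. +DBl6 was higher at viewpoints 1, 2 and 7 and lower at the other 9. By line, the geometric mean share over the 6 viewpoints with 2 samples a side was 3.79 and 3.2% on +DBl6. On +Bl6 it was 3.29 and 3.25%, so the lines overlapped, at 1.06-fold. With 2 samples a side, the groups did not overlap at viewpoint 1, where +DBl6 was higher, and at 3, 5 and 12, where it was lower. From viewpoint 2 the shares were 0.858 and 0.505% on +DBl6 and 0.423 and 0.521% on +Bl6, which overlap. The lowest folds were those of viewpoint 6 (0.786), where +DBl6 counts as 1 sample at 3.13% against 4.12 and 3.85%, and viewpoint 9 (0.787), where +Bl6 counts as 1 sample at 4.43% against 3.77 and 3.2%. The smallest adjusted exact p over the 12 viewpoints was 0.666.

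Windows of 80 kb were tested over the whole chromosome with edgeR's quasi-likelihood test and Benjamini-Hochberg adjustment. Both alleles of a line entered a fit as separate samples, although they come from the same cells. For Df against +129, 2.22% of all windows tested were called at an adjusted p of 0.05 or below (70 of 3153), and in the stretch 1 of 106 was. It was the window at viewpoint 1 itself, chr4:147920001-148000000, which holds Exosc10 and the end of Mtor. It had TMM-scaled levels of 110000 and 113000 RPM on Df and 64700 and 76600 on +129 (log2 0.66 ± 0.18 SE, edgeR adjusted p = 0.0146). The call was lost with DESeq2 (adjusted p = 0.0641), with captured fragments in place of reads (edgeR adjusted p = 0.979), and without line E71 (0.665) or E98 (0.424). DESeq2 called 1 other window of the 106, higher on Df (DESeq2 adjusted p = 0.0222), and 138 of 3153 on the chromosome.

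For +DBl6 against +Bl6, 0.139% of all windows were called (14 of 10060), and in the stretch 3 of 424. All 14 were higher on +DBl6, in the stretch and outside it. Most came from viewpoint 7, where +DBl6 was 1 merged sample. DESeq2 called 15 of 424 in the stretch, 7 higher and 8 lower, and 301 of 10060 on the chromosome, 90 higher and 211 lower. At viewpoint 1 the same window was higher by a log2 difference of 1.00 (SE of 0.18, edgeR's adjusted p = 7.19e-05), at 110000 and 128000 RPM against 51000 and 67600. The window before it, chr4:147840001-147920000 over Mtor and Angptl7, was higher by 0.78 (SE of 0.18, edgeR adjusted p = 0.0092), at 121000 and 131000 RPM against 56900 and 90200. With DESeq2 both calls were lost (adjusted p = 0.0625 and 0.276).

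The third call was chr4:143280001-143360000 from viewpoint 7, among the PRAME genes Gm13089 and Gm13078. The +DBl6 sample, which merges libraries of E71 and E98 that counted as 1, had 17500 RPM against 203 and 470 (log2 5.7 ± 1.15 SE, edgeR adjusted p = 0.0013). With 1 sample on the +DBl6 side, the spread was taken from the control chromosomes of the viewpoint, with 2 residual degrees of freedom. In the separate libraries 9 of the 23 fragments of this window were captured on +DBl6 in each line, against 2 and 16 on +Bl6. A single fragment that ends at 143316829 held 5755 of the 11684 reads in E71 (49.3%) and 6827 of 19640 in E98. With captured fragments in place of reads the difference was 0.2 on the log2 scale (edgeR adjusted p = 0.999), and with libraries as labelled or with total reads in place of TMM scaling the call was lost as well (0.125 and 0.284).

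For +129 against +Bl6, the strain contrast without a deletion, edgeR called 0% of all windows and 0 of 424 in the stretch. There 17 had an unadjusted p under 0.05 (4.01%, against 1.86% of all windows). DESeq2 called 2 of 424 in the stretch and 18 of 10060 on the chromosome. The smallest p was that of chr4:145120001-145200000 from viewpoint 9, with 1410 RPM on +129 and 17.6 on +Bl6 (log2 6.31 ± 1.81 SE, edgeR adjusted p = 1). DESeq2 gave it an adjusted p of 0.000378. Captured site 1 held 881 of the 958 reads of this window on +129 in E117 and 904 of 975 in E118, against 12 of 14 and 8 of 12 on +Bl6. Each side of this contrast was 1 merged sample, so its spread was taken from the +DBl6 libraries of the viewpoint.

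In windows of 1 Mb no part of the stretch was called. For Df against +129 edgeR called 2.16% of all windows (13 of 602) and 0 of 20 in the stretch, where 2 had an unadjusted p under 0.05 (10%, against 5.48% of all windows). For +DBl6 against +Bl6 it called 0.056% (1 of 1787) and 0 of 60, where 4 had an unadjusted p under 0.05 (6.67%, against 6.6% of all). In the first Mb, the PRAME cluster, +DBl6 was the higher chromosome from 10 of 12 viewpoints, with a median log2 difference of 0.62 and no edgeR adjusted p below 0.358. In the second Mb the median was 0.08 with 8 of 12 positive, in the third -0.39 with 5, in the fourth 0.24 with 9 and in the fifth -0.01 with 6. DESeq2 was not run on these windows.

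The regions of differential contact that were deposited with the study covered less of the stretch than of its neighbour. For Df against +129 they number 973 over the chromosome, far more than the paper counts for these viewpoints. They are thus not the set of regions that the paper describes. Over the 4 tables for Df against +129, 36 listed regions covered a mean of 8.18% of the stretch (3.92 to 15.4% by viewpoint), against 20.4% of the centromere side and 7.14% of the chromosome. Over the 12 tables for +DBl6 against +Bl6, 150 regions covered 12.2% of the stretch (0.42 to 37.2%), against 20.1 and 10.5%. Within the stretch the second Mb was covered most, at 13.5 and 22.1%, and the fourth least, at 2.67 and 3.4%.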

How the data were processed

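PE-4Cseq libraries of 12 viewpoints, 4 MEF lines and both alleles were analysed. Per the study's methods, the authors split read pairs by a strain polymorphism, trimmed interacting reads to 30 bases, aligned them with Bowtie (version not given in the sources used here) to sequences bordering HindIII sites of mm9 with up to 3 mismatches, and kept unique hits. For chromosome 4 the deposited files give the count of reads at each HindIII fragment, unscaled. The deposited region tables (unit: positions only) hold the authors' own comparisons, and only the length they cover was used, with no values or directions.

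Each listed end matched a HindIII site of the NCBIM37 reference, and reads of a row behaved as coming from both flanks of that site, so uniqueness was computed for both flanks against all HindIII ends of the genome. Genes came from the mm9 annotation, and 143 of 192 records were matched by symbol to RefSeq for current names. Gene groups are those with PRAME or Oog, zinc finger or Aadacl symbols, and a list of single-copy genes. Named were the 5 longest gaps, the 3 fragments captured in the most libraries and the 3 with the most reads, and up to 3 windows of the stretch per comparison by adjusted p. The members and lists were chosen with earlier results of these data known.

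Windows were fitted per viewpoint with edgeR 4.0.16 (TMM, quasi-likelihood) and DESeq2 1.42.0 as the alternative, and p-values were adjusted over all windows and viewpoints of a comparison. The scripts were tested on simulated data. Values of 1 number per line were compared by exact permutation. Library totals ranged from 444 to 3969613 reads. Reads carry no molecular identifiers, so PCR copies of 1 ligation product cannot be told from separate products, which is why captured fragments were counted beside reads. Labels name the lines as separate but not the 4C templates, so permutation p-values rest on the spread between lines. The main window fits took the chromosomes of a viewpoint together, with no term for the line. Both alleles of a line, from the same cells, thus counted as separate samples, and the spread was shared over chromosomes. Window p-values therefore do not measure the spread between lines of a genotype alone.

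Per the study's methods, PCR products of E71 and E117 were purified on columns and those of E98 and E118 with beads. Lines of the 2 genotypes share no animal, so they are not pairs, and as an alternative a fit with the purification batch (or, between the chromosomes of a line, the MEF line) as a replicate block was run.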

Additional observations from a re-analysis of the deposited data

How the results depend on the processing

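The captured share of the stretch against the centromere side (log2 -0.837) turned with unique fragments only (0.403) and, in settings chosen after seeing the data, with the fragments' own 2 ends (0.291) or unique ends against the next 5 Mb (0.72). Among unique fragments the captured share moved from 16.1 to 37.2%. The strain difference relative to the centromere side (0.064) turned to -0.009 against the telomere side and -0.004 over all 12 viewpoints of the control lines. The mean fold of read shares turned from 0.939 (Df against +129) and 0.965 (+DBl6 against +Bl6) to 1.28 and 1.14 with captured fragments, 1.03 and 1 (just above it) with a zone of 0.1 Mb, and, for +DBl6, 1.07 with reads up to 2 Mb past the stretch (chosen after seeing the data) and 1.01 without E118. By viewpoint, captured fragments turned Df at 2 (1.37) and 12 (1.2), and +DBl6 at 3 (1.17), 4 (1.1), 5 (1.05), 6 (1.1), 8 (1.07), 9 (1.11), 11 (1.08) and 12 (1.04). Capped reads turned viewpoint 12 of Df (1.01) and 5 of +DBl6 (1.01), and a zone of 0.1 Mb viewpoint 12 of Df (1.06) and 11 of +DBl6 (1). Leaving out the fifth Mb, which holds viewpoint 1, turned +DBl6 at 4 (1) and 11 (1.24). Reads up to 2 Mb past the stretch turned +DBl6 at 4 (1.09), 5 (1.04), 9 (1.03) and 11 (1.01). Without E118, viewpoint 11 of Df (1.04) and 8 of +DBl6 (1.08) turned, and without E98 or E117 viewpoint 11 of +DBl6 (1.06 and 1.11). The causes were not tested. With 1 line left out at a time the mean fold for +DBl6 ran from 0.926 to 1.01, viewpoint 11 of Df from 0.582 to 1.04, and viewpoints 8 and 11 of +DBl6 from 0.787 to 1.08 and from 0.885 to 1.11.

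With 4 libraries in place of 6, fragments read on 1 strain's chromosome numbered 5 of 578 for 129S5 and 7 of 599 for C57Bl6. These are 0.865 and 1.17%, where the whole chromosome gave 1.08 and 1.29%. Among unique ones there was 1 of 427 for C57Bl6 (0.234%, against 0.277% over the chromosome). Gaps in the stretch numbered 11 at 50 kb, 0 at 0.2 Mb and 5 where a read needed a count of 5. For Df against +129, 1 window of 80 kb was called in the stretch, and 1 other with DESeq2. The count moved to 3 with total reads (77 of 3153 on the chromosome) and 2 with a lower filter (74 of 5590). It was 0 with captured fragments (22 of 5183) and 0 to 2 when 1 line was left out. For +DBl6 against +Bl6 it moved from 3 to 15 with DESeq2, 0 with captured fragments and 0 to 2 when 1 line was left out. For +129 against +Bl6 it moved from 0 to 2 with DESeq2 and 1 with all libraries as labelled (1 of 9893 on the chromosome). With windows of 0.2 Mb in place of 1 Mb, 2 of 64 were called in the stretch for Df against +129 (48 of 2049 on the chromosome). For +DBl6 against +Bl6 it was 2 of 227 (21 of 6320). Over the chromosome, DESeq2 called 138, 301 and 18 windows where edgeR called 70, 14 and 0. With the purification batch as replicate block, 3 windows of the stretch were called for Df against +129 (81 of 3153 on the chromosome). For +DBl6 against +Bl6 it was 4 (26 of 7958). With the MEF line as block it was 0 for +129 against +Bl6 (4 of 7958). Centromere-side coverage by listed regions for Df against +129 was 20.4%. Of the fragments without a unique flank 36.5% had a read in any library, and 2 lines per genotype limit every contrast between genotypes.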
